A study of Mus musculus with 12 samples.

Results

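The old hepatocyte network held 1185 cliques that had no bin in common with the young network. A clique is the authors' name for a set of linked 5 kb bins, called nodes, and each clique comes with the genes that the authors attached to it. The contacts were measured by H3K27ac Hi-ChIP, in which ligated chromatin contacts are enriched with an antibody against the H3K27ac mark, in liver cells labelled hepatocytes from male C57BL/6 mice aged 5 months (young) or 25 months (old). Mice of both ages were housed in the same vivarium for 2 months before use and fed a regular diet without restriction, and no genotype or treatment separated them. The old mice came from the stock of the National Institute on Aging and the young from the commercial colony of the breeder, so age and stock cannot be told apart. Each age had 6 libraries, from 2 biological replicates with 3 batches of technical repeats, and its data came as 1 network that names no replicate. A clique was included when it lay on an autosome and none of its bins was listed in the young network, and 2-node cliques whose bins started more than 100 kb apart were left out. Of 5973 old cliques, 106 were on the X chromosome and 421 were such wide pairs, so 5446 were considered and 1185 of them (21.8%) qualified. These cliques were chosen by their absence from the young network, a measured value, so that share, and every distance to a young bin, is a description. With 1 network per age no spread between animals could be computed and no test was possible. Intervals are 95% intervals, by Wilson's method for shares and from order statistics for medians. They cover counting error only, treat cliques as independent, and say nothing of how a second set of animals would differ.

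H3K27ac marks active promoters and enhancers, and contacts between marked regions connect distal enhancers with the promoters they can act on. In hepatocytes the strongest such regions lie around genes of plasma proteins, lipid and drug metabolism and the factors that maintain hepatocyte identity. A network is built from contacts that pass a threshold, so a weak contact can be present in one network and missing in another. In cells studied in bulk, a contact made in few cells and one made weakly in many cannot be told apart. The read depth behind each network is unknown. The young network held 5401 cliques, fewer than the old one, but of a larger average size.

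Promoters that lay on the bins of these cliques differed widely in sequence, from CpG islands to promoters with few CG dinucleotides. The first 5 below are from the 12 large cliques described further on, from genes whose RefSeq promoter lay on a bin of the clique. The sixth, Socs3, came next by clique size among the genes of the fixed lists. Irf7 and Irf8 were added after their values were seen, because the interferon genes are described below. Each sequence runs 5′ to 3′ from 250 bases before to 50 bases after 1 annotated start of the gene. It is taken from RefSeq on GRCm38.p6 and is written on the strand of the gene. Where several starts lay on the bins, the promoter with the lowest coordinate was taken. In all but Irf8 that start lay inside the gene span, for Gtpbp3 at 71488728 in a span that begins at 71486144. In the first 5 the capitals mark CG dinucleotides, which number 12 in Lrrc27 (chr7:139212738-139213037, plus strand), 46 in Fibcd1 (chr2:31845956-31846255, minus strand), 14 in Gtpbp3 (chr8:71488478-71488777, plus strand), 26 in Dtx1 (chr5:120711620-120711919, minus strand) and 7 in Adgrg1 (chr8:94976859-94977158, plus strand).
Lrrc27: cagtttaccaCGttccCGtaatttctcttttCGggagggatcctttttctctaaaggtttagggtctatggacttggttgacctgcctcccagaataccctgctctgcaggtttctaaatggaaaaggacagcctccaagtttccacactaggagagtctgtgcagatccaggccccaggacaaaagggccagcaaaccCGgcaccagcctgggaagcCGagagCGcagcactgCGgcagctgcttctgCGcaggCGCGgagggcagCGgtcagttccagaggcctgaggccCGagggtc
Fibcd1: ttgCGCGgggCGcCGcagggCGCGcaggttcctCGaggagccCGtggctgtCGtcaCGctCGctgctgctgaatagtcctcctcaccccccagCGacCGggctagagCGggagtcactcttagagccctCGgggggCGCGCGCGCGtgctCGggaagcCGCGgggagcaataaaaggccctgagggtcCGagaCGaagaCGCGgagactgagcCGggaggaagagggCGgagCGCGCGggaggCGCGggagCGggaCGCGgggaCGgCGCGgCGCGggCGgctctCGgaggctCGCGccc
Gtpbp3: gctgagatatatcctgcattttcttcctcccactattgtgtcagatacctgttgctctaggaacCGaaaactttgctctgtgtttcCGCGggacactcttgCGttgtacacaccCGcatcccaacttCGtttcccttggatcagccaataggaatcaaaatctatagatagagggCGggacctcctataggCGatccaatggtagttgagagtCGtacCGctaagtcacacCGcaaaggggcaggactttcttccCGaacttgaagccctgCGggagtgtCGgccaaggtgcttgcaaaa
Dtx1: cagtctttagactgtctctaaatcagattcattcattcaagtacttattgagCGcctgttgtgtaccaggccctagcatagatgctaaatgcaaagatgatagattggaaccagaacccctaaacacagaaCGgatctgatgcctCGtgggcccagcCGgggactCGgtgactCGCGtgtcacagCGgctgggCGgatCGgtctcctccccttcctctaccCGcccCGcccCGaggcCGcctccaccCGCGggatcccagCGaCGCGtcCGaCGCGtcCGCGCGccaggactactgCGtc
Adgrg1: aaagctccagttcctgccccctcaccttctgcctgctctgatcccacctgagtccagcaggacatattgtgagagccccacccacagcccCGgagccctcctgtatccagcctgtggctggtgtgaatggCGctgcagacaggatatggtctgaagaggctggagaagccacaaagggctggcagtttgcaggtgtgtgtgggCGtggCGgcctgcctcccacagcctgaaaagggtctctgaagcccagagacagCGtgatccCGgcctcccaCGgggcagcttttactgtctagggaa
The last 3 are from regulators of cytokine and interferon signalling. They are Socs3 (chr11:117969317-117969616, minus strand), Irf7 (chr7:141266375-141266674, minus strand) and Irf8 (chr8:120736108-120736407, plus strand), and their capitals mark matches to the GAS element, the form of site that STAT proteins bind.
Socs3: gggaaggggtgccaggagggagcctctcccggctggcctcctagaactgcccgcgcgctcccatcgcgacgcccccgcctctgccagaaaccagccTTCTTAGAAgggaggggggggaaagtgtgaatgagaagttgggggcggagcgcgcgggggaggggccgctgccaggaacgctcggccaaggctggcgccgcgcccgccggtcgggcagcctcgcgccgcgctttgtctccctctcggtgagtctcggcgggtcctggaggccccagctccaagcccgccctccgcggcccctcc
Irf7: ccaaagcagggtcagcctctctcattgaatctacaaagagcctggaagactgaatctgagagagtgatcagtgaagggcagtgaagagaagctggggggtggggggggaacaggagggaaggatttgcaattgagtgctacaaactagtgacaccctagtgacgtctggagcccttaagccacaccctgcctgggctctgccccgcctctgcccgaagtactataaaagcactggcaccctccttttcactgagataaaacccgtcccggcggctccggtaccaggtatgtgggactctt
Irf8: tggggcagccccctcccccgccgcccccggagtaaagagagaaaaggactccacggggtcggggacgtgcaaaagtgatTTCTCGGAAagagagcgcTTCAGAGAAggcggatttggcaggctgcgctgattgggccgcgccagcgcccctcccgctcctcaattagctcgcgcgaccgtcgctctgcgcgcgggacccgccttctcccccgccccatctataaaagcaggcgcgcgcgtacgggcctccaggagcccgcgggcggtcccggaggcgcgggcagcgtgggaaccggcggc
The search used TTCNNNGAA for the GAS element, and the interferon-stimulated response element was searched in the same way, both on both strands. The Socs3 promoter held 1 GAS match, starting at -154 relative to the annotated start used, and the Irf8 promoter held 2, at -171 and -153. The Irf7 promoter held none, and none of these 3 promoters held a match to the second motif, so no matches of the motifs overlapped. GAS matches were present in 7.69% of all 21263 RefSeq promoters of protein-coding genes and in 26 of the 315 (8.25%, 5.69 to 11.8) that lay on bins of these cliques.

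A pair of microRNA clusters was also among the gene lists. The cliques listed 17 of the 283 microRNA genes in the old cliques considered (6.01%, 3.78 to 9.41), near the 5.74% over all gene names. All 17 had a mature sequence in RefSeq. The 2-node clique on chromosome 8 from 84205001 to 84230000 listed Mir23a, Mir27a and Mir24-2, a cluster known to be processed from a shared transcript. The 3-node clique on chromosome 17 from 17830001 to 17865000 listed Mir99b, Mirlet7e and Mir125a. The main arms are printed 5′ to 3′ with the seed, bases 2 to 8, in capitals.
mmu-miR-23a-3p: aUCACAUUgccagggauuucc
mmu-miR-27a-3p: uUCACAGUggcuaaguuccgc
mmu-miR-24-3p: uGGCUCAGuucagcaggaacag
mmu-miR-99b-5p: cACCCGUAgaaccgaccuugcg
mmu-let-7e-5p: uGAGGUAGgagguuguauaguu
mmu-miR-125a-5p: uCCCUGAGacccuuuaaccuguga
mmu-miR-6369: uGGCUCAGuucaguguuggugag
No pair among the first 6 shared a seed. The last, from a separate 2-node clique on chromosome 13, has the seed GGCUCAG of miR-24-3p. The Mir23a cluster and Mir125a were listed by no young clique. Mir99b and Mirlet7e were listed by a young clique of 4 nodes from 17815001 to 17855000, which had a bin adjacent to the old one.

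Most of these cliques were single pairs of bins at short range. Of the 1185, 975 had 2 nodes (82.3%, 80.0 to 84.3), 149 had 3, 36 had 4 and 25 had 5 or more (2.11%, 1.43 to 3.10). The largest had 9 nodes. Among the 4261 old cliques with a young bin, 36.0% had 2 nodes (34.6 to 37.5) and 41.1% had 5 or more (39.7 to 42.6), and the largest had 160. The mirror class, young cliques without any old bin, resembled them more closely, with 70.3% of 1695 at 2 nodes (68.0 to 72.4) and 12 nodes at most. In all, the 1185 cliques covered 2691 bins or 13455 kb, which was 31.5% of the 8540 autosomal old bins that the young network lacked.

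**Figure D1:**
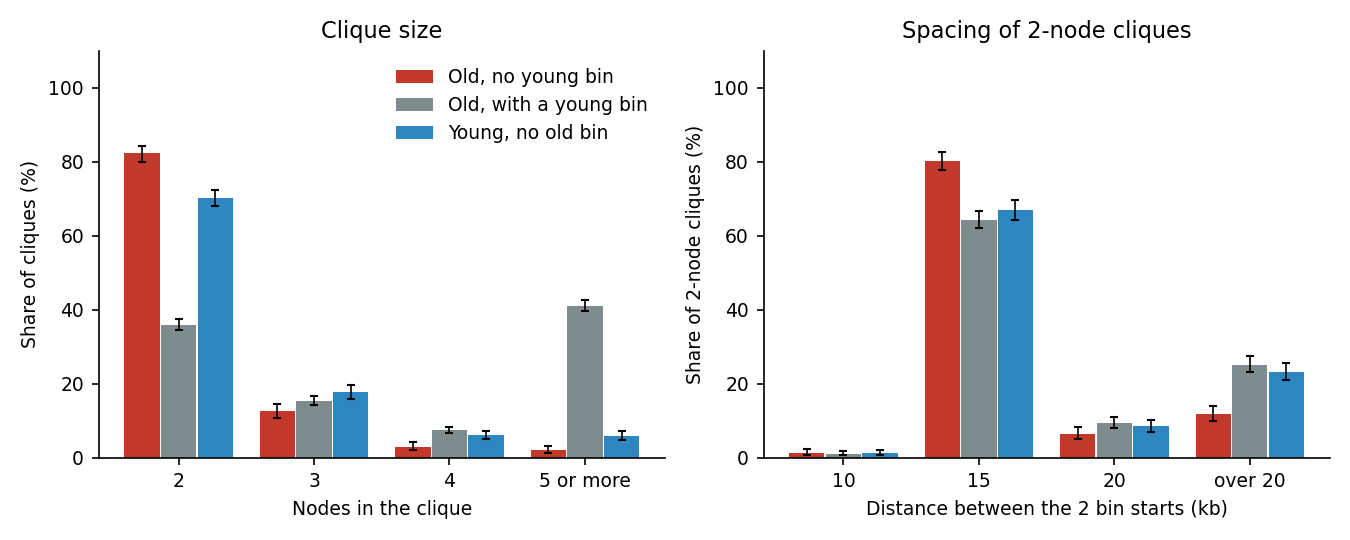
Left, the share of cliques (%) by number of nodes, and right, the share of 2-node cliques (%) by distance between bin starts (kb), for old cliques without a young bin (red), old cliques with one (grey) and young cliques without an old bin (blue). Bars are shares and lines are 95% Wilson intervals. The red bars are highest at 2 nodes (82.3%) and at 15 kb (80.3%).

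Within the pairs, the distance between bins was shorter than in the comparison classes. The bins started 15 kb apart in 783 of the 975 pairs (80.3%, 77.7 to 82.7). The same spacing was found in 64.4% of the 1534 pairs among old cliques with a young bin (62.0 to 66.8) and in 67.1% of the 1191 young pairs without any old bin (64.4 to 69.7). Pairs over 20 kb apart made up 11.8% (9.92 to 14.0), 25.2% (23.1 to 27.4) and 23.2% (20.9 to 25.7) in the same order. No pair joined neighbouring bins, and 13 pairs had starts 10 kb apart, the closest spacing present. Cliques of 3 nodes were also more compact, with a median span of 35.0 kb (35 to 40) compared with 57.5 kb (50.0 to 65.0) in old cliques with a young bin and 60.0 kb (40 to 70.0) in young cliques without an old one. The median span over all 1185 was 20 kb, and the widest reached 405 kb.

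Genes were attached to these cliques less often than to the other old cliques, and fewer of the promoters on their bins were rich in CG dinucleotides. A gene was listed by 461 of the 1185 (38.9%, 36.2 to 41.7), compared with 69.3% of old cliques with a young bin (67.9 to 70.7) and 40.1% of young cliques without an old one (37.8 to 42.4). Larger cliques listed genes more often in every class, so the shares were also set side by side at equal size. At 2 nodes the shares were 38.1% (35.1 to 41.1), 45.6% (43.1 to 48.1) and 35.8% (33.1 to 38.5). At 3 nodes they were 38.3% (30.8 to 46.3), 61.6% (57.8 to 65.2) and 41.9% (36.4 to 47.5). Where a gene was listed there were 1.39 on average and 6 at most.

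**Figure D2:**
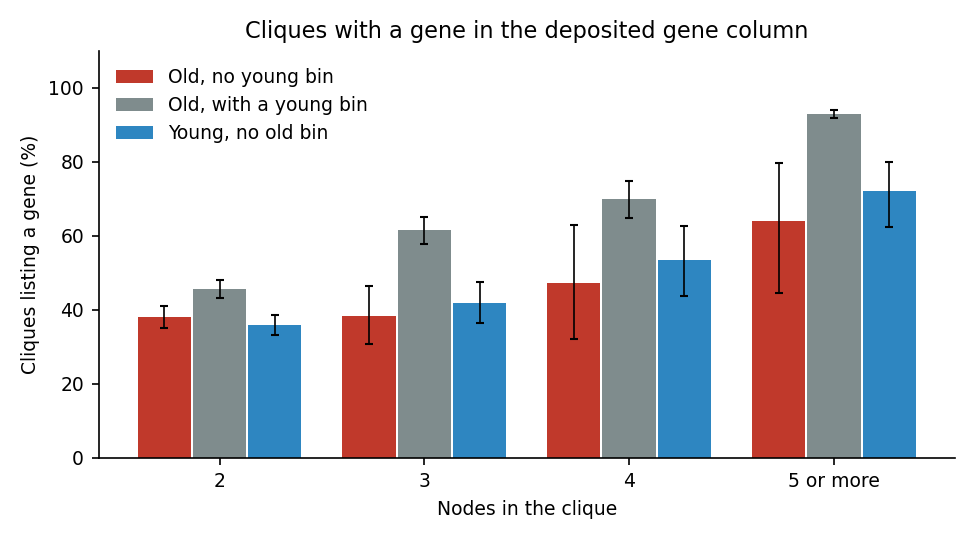
Share of cliques that list a gene (%) by number of nodes, for old cliques without a young bin (red), old cliques with one (grey) and young cliques without an old bin (blue), with 95% Wilson intervals. At 2 nodes the red bar stands at 38.1% and the grey at 45.6%, and at 5 or more nodes at 64.0% and 93.0%.

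By position, 1951 of the 2691 bins (72.5%, 70.8 to 74.2) touched the span of a protein-coding gene, close to the 74.0% (73.6 to 74.5) in old cliques with a young bin. A protein-coding gene start lay on 9.85% of them (8.78 to 11.0), compared with 13.9% (13.6 to 14.3), and within pairs on 10.7% (9.42 to 12.2) and 16.4% (15.1 to 17.7). Young cliques without an old bin were close to these cliques, at 10.3% (9.39 to 11.2) and within pairs 11.0% (9.80 to 12.3). Among the 315 promoters of 283 genes on the bins, 187 (59.4%, 53.9 to 64.6) had a CpG ratio of at least 0.6, the number of CG dinucleotides over that expected from the C and G content. The share was 71.0% (67.4 to 74.3) for promoters on pairs with a young bin, 67.1% (65.9 to 68.2) over all old cliques with a young bin, and 72.9% (69.1 to 76.4) in young cliques without an old one. Over all promoters of protein-coding genes it was 47.7% (47.0 to 48.3). The median GC content was 60.3% (58.7 to 61.7) on these bins and 60.3% (59.3 to 61.3) on the pairs with a young bin. Without the pairs, at 3 or more nodes, the CpG share was 52.3%.

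The kinds of gene were much like those of the other old cliques. The 1185 cliques listed 639 gene names, of which 519 were matched in RefSeq and 384 (60.1%, 56.2 to 63.8) were protein-coding. These 384 were 5.55% of the protein-coding genes listed by the old cliques considered. The 60.1% compares with 62.3% (61.3 to 63.2) of the 10492 names listed by old cliques with a young bin. Of the 639 names, 615 (96.2%) were listed by no young clique, beside 14.1% of all 11131 names listed by the old cliques considered. The rule removes young bins from these loci, so that share follows from it in large part. Of the 368 protein-coding genes listed by no young clique, 75 (20.4%, 16.6 to 24.8) still had a young bin elsewhere in the gene span.

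Many of these cliques lay beside the young network rather than far from it. Distances run from bin start to bin start, so an adjacent bin is 5 kb away. The nearest young bin was the adjacent one for 327 cliques (27.6%, 25.1 to 30.2), within 25 kb for 586 (49.5%) and over 100 kb away for 256 (21.6%, 19.4 to 24.0). The median was 30 kb (25.0 to 30). Young cliques without an old bin were alike at short range, with an adjacent old bin for 29.2% (27.1 to 31.4). One lay within 25 kb for 47.1%, and the median was 35 kb. More of them, 29.9% (27.8 to 32.1), lay over 100 kb from an old bin. Per bin, 16.6% of the 2691 bins were adjacent to a young bin and the median was 40 kb (40 to 45). Of the 5485 old-only bins inside the other old cliques 57.6% were adjacent, with a median of 5.00 kb. Those cliques hold a young bin by definition, so that contrast follows from the rule in large part. A total of 381 cliques (32.2%, 29.6 to 34.9) were enclosed in the span of a young clique, whose median size was 16.0 nodes. The share was 77.3% (76.0 to 78.5) for old cliques with a young bin, a contrast that also follows from the rule in large part. Of young cliques without an old bin, 22.8% (20.9 to 24.9) were enclosed in the span of an old one. Old cliques were smaller on average than young ones, so this share is not a like measure. The median number of young bins within 250 kb of the clique centre was 16 (15 to 18), and 108 cliques had none. For the 1695 young cliques without an old bin, the median number of old bins was 7 (6 to 8), and 280 had none.

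**Figure D3:**
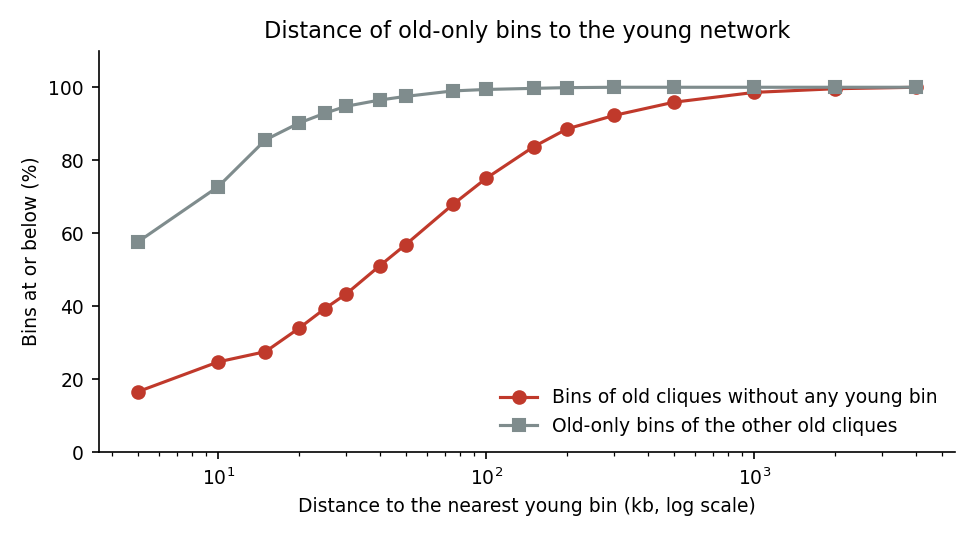
Cumulative share of bins (%) against the distance to the nearest young bin (kb, log scale), for the 2691 bins of old cliques without a young bin (red) and the 5485 old-only bins of the other old cliques (grey). The red curve is at 39.4% and the grey at 92.9% at 25 kb. The grey bins belong to cliques that hold a young bin by definition.

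Many also lay beside other old cliques, though at 2 nodes less often than the old pairs with a young bin. A bin of another old clique was adjacent to 498 of the 1185 (42.0%, 39.2 to 44.9), and for 249 of those it belonged to another clique without a young bin. At 2 nodes the adjacent share was 40.5% (37.5 to 43.6), compared with 57.4% (54.9 to 59.8) of the pairs with a young bin. Cliques with overlapping or touching spans were joined, which gave 1037 separate loci, 909 of 1 clique and 128 of 2 to 5 cliques. The locus with most cliques was on chromosome 17 from 27175001 to 27255000, with 5 cliques and 11 bins that touched the span of Lemd2, an inner nuclear membrane protein gene, and its nearest young bin was 160 kb away. A 4-clique locus of 10 bins lay on chromosome 15 from 78585001 to 78710000 on the spans of Cyth4 and Elfn2, and another on chromosome 8 from 122180001 to 122245000 on that of Zfp469. At the opposite end, 75 cliques (6.33%, 5.08 to 7.86) had no young bin and no other old bin within 250 kb, and 65 of them were pairs.

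Of 14 cliques with 6 or more nodes, the 12 described here had 6 to 9, and 8 of them listed a gene. The 9 cliques of 6 nodes were tied, and 7 were taken by span, the last of them on Kcnt1 with the same span of 55 kb as the Col16a1 clique left out. One of 9 nodes, on chromosome 15 (73700001 to 73795000), listed Ptp4a3, a tyrosine phosphatase of the PRL family. Of its 9 bins, 5 lay in the span of that gene, with others on Gpr20 and Mroh5, and its nearest young bin was 65 kb away. The other clique of 9 nodes, on chromosome 4 from 125400001 to 125470000, listed no gene, touched no protein-coding span, and had its nearest young bin 275 kb away. Gdpd5, a glycerophosphodiesterase gene, was listed by a clique of 8 nodes on chromosome 7 from 99370001 to 99460000, 120 kb from a young bin. The clique of Lrrc27, a leucine-rich repeat gene, also had 8 nodes, from 139200001 to 139260000 on the same chromosome and 45 kb from a young bin.

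The other 8 of these cliques had 6 or 7 nodes. Dtx1, a Notch pathway regulator, and Rasal1, a Ras GTPase-activating protein gene, shared a clique of 6 nodes on chromosome 5 from 120645001 to 120715000, with the nearest young bin at 30 kb. Cux2, a homeobox factor whose expression in mouse liver is known to be female-biased, was listed by 6 nodes on the same chromosome from 121945001 to 122055000, 65 kb from a young bin, in samples that were all from males. One young bin lay elsewhere in the span of that gene. Adgrg1, an adhesion G protein-coupled receptor gene, had 6 nodes on chromosome 8 from 94945001 to 95010000 at 40 kb. The chitin-binding receptor gene Fibcd1 and the laminin gene Lamc3 shared 6 nodes on chromosome 2 from 31815001 to 31895000 at 25 kb. Closer to young bins were the clique of Ano8 and Gtpbp3 (chromosome 8, 71455001 to 71535000), adjacent to a young bin and enclosed in a young clique of 40 nodes, and a clique of 7 nodes within Megf11 (chromosome 9, 64500001 to 64565000), also adjacent. That clique and the remaining 2 listed no gene. Of those 2, one lay on Kcnt1 and the other on Nfatc1 and Atp9b.

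No gene of the fixed hepatocyte identity and metabolism lists was listed by these cliques, while 2 interferon genes, 2 clock genes and 1 acute phase gene of other fixed lists were. The 8 lists of hepatocyte transcription factors, plasma proteins and liver metabolism held 148 genes listed by the old cliques considered. Of these, 0 were listed by a clique without a young bin, which allows a share of up to 2.53%. Over all gene names the share was 5.74%. These genes sit mostly in large cliques, and with size limited to 2 to 4 nodes the comparison was less wide. There 0 of 366 protein-coding genes were on the hepatocyte lists, which allows up to 1.04%, beside 14 of 1435 (0.976%, 0.582 to 1.63) for old cliques with a young bin. The latter share itself lies below that limit, so a difference was not detectable at this size. By gene span in place of the authors' gene column, 1.22% of the hepatocyte genes reached were on these cliques. Across all 19 pathway lists, 5 of 282 listed genes (1.77%, 0.760 to 4.08) were in these cliques, and 16 lists had none. The cliques of Irf7, Socs3, Clock and Per3 were each adjacent to a young bin, and that of Irf8 was 40 kb from one. Only Irf8 would therefore remain if a young bin within 5 kb counted as shared.

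**Figure D4:**
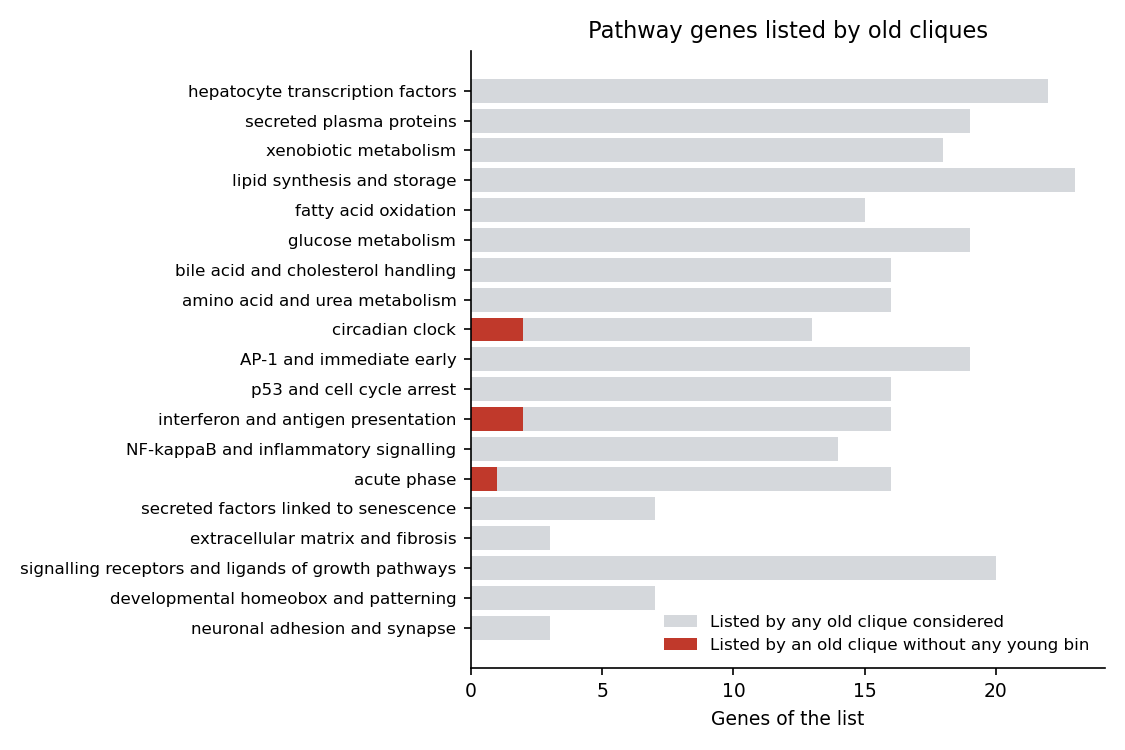
Number of genes of each of the 19 pathway lists that are listed by any old clique considered (grey) and by an old clique without a young bin (red). Red is present in 3 lists, with 2 interferon genes, 2 clock genes and 1 acute phase gene. Of these genes, only Irf8 was in a clique without an adjacent young bin.

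The interferon and antigen presentation list had 16 genes in the old cliques considered, and 2 of them (12.5%, 3.50 to 36.0) were in cliques without a young bin, with an interval that includes the 5.74% over all gene names. Irf8, a factor of myeloid and lymphoid cells that is also interferon-inducible, was listed by a pair on chromosome 8 from 120735001 to 120755000, with both bins on the gene and the nearest young bin at 40 kb. A second pair without a young bin interleaved with it. Irf7, which drives type I interferon genes, was listed by a pair on chromosome 7 whose bins, 141265001 to 141270000 and 141360001 to 141365000, lay 95 kb apart within the span of a young clique of 148 nodes, and both bins were adjacent to young bins. Counting a young bin within 5 kb as shared therefore left 1 of the 16 genes, or 6.25%. Neither gene was listed by a young clique or had a young bin in its span. The span of Irf7 also held a bin of an old clique of 46 nodes, one of those with a young bin. The Irf8 pair was enclosed in the span of a young clique of 3 nodes. At equal size, 2 to 4 nodes, the list supplied 2 of 366 protein-coding genes (0.546%, 0.150 to 1.97) here and 2 of 1435 (0.139%, 0.0382 to 0.507) in old cliques with a young bin, and these intervals overlapped.

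Socs3, a feedback inhibitor of IL-6 and STAT3 signalling, was the acute phase gene among them. Its clique had 3 nodes on chromosome 11 from 117950001 to 117985000, with 1 bin on the gene, and the distances of the 3 bins to a young bin were 35, 20 and 5 kb. No young clique listed it. The clock genes were a different case. Clock, a core activator of the circadian oscillator, was listed by an old pair on chromosome 5 from 76290001 to 76310000 and by a young pair from 76285001 to 76305000, the same spacing 5 kb over. Per3, a period gene of the same oscillator, was listed by an old pair on chromosome 4 from 151040001 to 151060000 and by a young pair from 151045001 to 151065000. For both genes the pairs of the networks were offset by 1 bin.

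**Figure D5:**
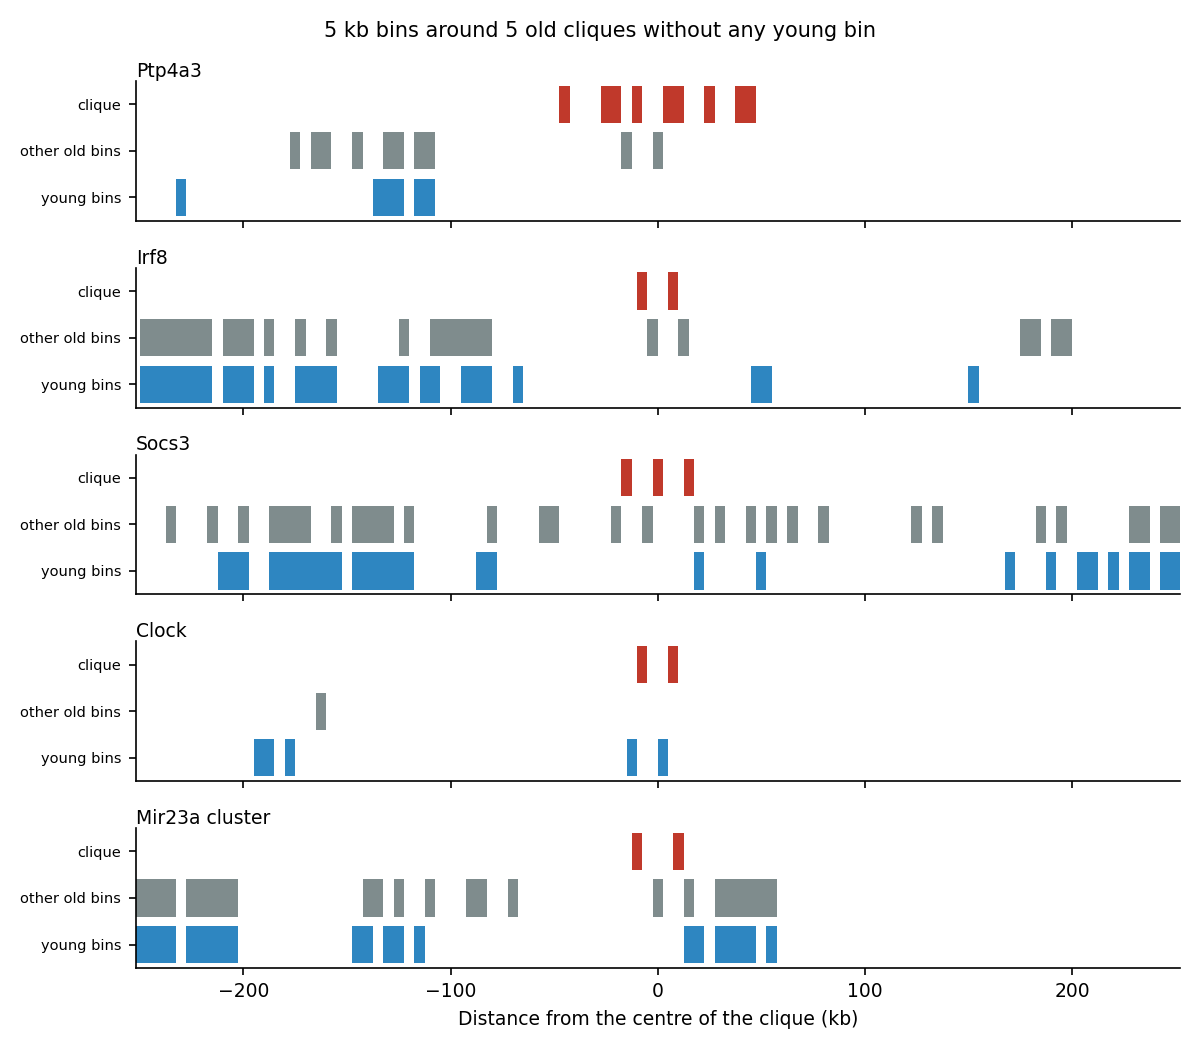
The 5 kb bins within 250 kb of the centre of 5 old cliques without a young bin, as distance from the centre (kb), with the bins of the clique in red, other old bins in grey and young bins in blue. At Ptp4a3 the nearest young bin is 65 kb away, and at Clock a young pair sits 5 kb from the old one.

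Each gene listed at both ages had such a close pair of cliques. Of the 639 gene names, 24 (3.76%, 2.54 to 5.53) were listed by a young clique too, and in all 24 the young clique had a bin adjacent to the old one. Cliques without a young bin mostly had a bin near the start of the protein-coding gene they listed. The RefSeq start lay within 2500 bp of a bin in 279 of 295 such cases (94.6%, 91.4 to 96.6). The rule bars a shared bin, so listings at both ages through the same start must use different bins close together. The adjacency in all 24 therefore follows from the rule in large part. In 11 of the 24 the young clique was a pair, and for 10 of these the old one was too. In 7 it had 10 or more nodes. Examples, named after their values were seen, are Sh2b1, an adaptor in insulin and leptin signalling, and Septin1, a cytoskeletal septin gene. Both belonged to one 63-node young clique and to separate old pairs. Cdc37, a kinase co-chaperone gene, went with a 14-node young clique and an old pair.

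Markers of other cells that a liver preparation could hold were rarely listed. Of 72 markers of 7 other cell types, 9 were listed by the old cliques considered and 2 of those (22.2%, 6.32 to 54.7) by cliques without a young bin, beside 5.74% of all gene names. They were 1 of 4 listed T and NK cell markers and 1 of 2 listed B cell markers, namely Tcf7, a T cell transcription factor (chromosome 11, 52260001 to 52285000, enclosed in a young clique of 87 nodes), and Cd79b, a B cell receptor subunit (chromosome 11, 106310001 to 106330000), both in pairs. All 12 macrophage, all 12 stellate cell and all 6 neutrophil markers were listed by 0 old cliques considered, and 11 of the 72 were listed in young. Of 8 hepatocyte markers, 6 were listed by the old cliques and 7 by young cliques. The part of other cells in the Irf8, Tcf7 and Cd79b cliques was not tested.

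The 4 cliques that listed most genes, 4 to 6 names each, were 3 pairs and the Mir99b clique of 3 nodes. A pair on chromosome 11 from 3645001 to 3665000 listed 6 names, among them the long noncoding RNA Tug1 and Morc2a, a chromatin compaction gene, with the nearest young bin at 190 kb. The Mir23a pair listed 5 names and the Mir99b clique 4. A pair on chromosome 3 from 155075001 to 155095000 listed 4, including the fucose salvage gene Fpgt and Lrriq3, and its nearest young and old bins were both 1120 kb away.

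The cliques farthest from the young network were pairs or triplets in otherwise empty stretches. The farthest was a pair on chromosome 14 from 111655001 to 111675000 that listed Slitrk5, a neuronal membrane protein gene, 3185 kb from a young bin and 6330 kb from another old one. Hdac2, a histone deacetylase gene, was listed by a pair on chromosome 10 from 36975001 to 36995000, 2145 kb from a young bin. The mitochondrial translation factor gene Guf1 was listed by a pair on chromosome 5, from 69555001 to 69575000, at 2210 kb. The exon junction gene Magohb had 3 nodes on chromosome 6, from 131275001 to 131310000, at 1735 kb, and the olfactory receptor gene Olfr24 had a pair on chromosome 9, from 18760001 to 18780000, at 1680 kb. Of the other 5 in the 10 farthest, 4 listed no gene, 2 of them interleaved within Cdh12, a cadherin gene, and 1 within Cntnap5a. The remaining one, a pair on chromosome 3, listed the transcript 1700018B24Rik.

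All 19 autosomes held such cliques. The share of the old cliques considered ran from 16.0% on chromosome 1 (55 of 344, 12.5 to 20.2) to 29.4% on chromosome 15 (67 of 228, 23.9 to 35.6), beside 21.8% over all. At the limits of the rule, 8 pairs had starts 95 kb apart, 1 had starts 100 kb apart, and just outside it 4 had starts 105 kb apart. A further 773 old cliques had exactly 1 young bin, and 607 of those were pairs.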

How the data were processed

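Per the labels, H3K27ac Hi-ChIP was carried out on 12 libraries, and livers were perfused, digested with collagenase and spun at low speed to collect hepatocytes. The submitters' processing notes name Bowtie2 and HiC-Pro, with the builds mm10 and GRCm38. The contact caller, its thresholds, the clique method, the promoter window and the pooling of libraries were not stated in the labels or notes, and the depth per library is unknown. The authors deposited 4 tables, which give the position of each 5 kb node and, for each clique, its number of nodes, gene names and nodes. Positions are written 1-based.

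Bins were matched by position. Gene names were matched to RefSeq GRCm38.p6 by symbol or unique synonym. Exons and introns were not annotated. One listed gene is not reported here and was taken out of its list. Gene starts and promoters are from a table that holds 17492 of 21900 protein-coding genes. The code was tested on simulated networks. Named genes are those of the 12 largest cliques (ties by span), of fixed lists, of the 5 cliques with most genes and of the 10 cliques farthest from a young bin, and others were chosen after their values were seen. The cliques and lists were chosen with earlier results of these data known, so no pattern is independent support. Python 3.11.15, pandas 2.3.3 and scipy 1.17.1 were used. The 6 alternatives concern clique size, what counts as a shared bin, the X chromosome, wide pairs and gene assignment.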

Additional observations from a re-analysis of the deposited data

Results flagged for a closer look

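Both groups of cliques that the rule leaves out also held cliques without a young bin. On the X chromosome 30 of 106 old cliques had none (28.3%, 20.6 to 37.5), beside 21.8% of the autosomal cliques considered. Among autosomal pairs with starts over 100 kb apart, 102 of 421 had none (24.2%, 20.4 to 28.5), with a median distance of 0.180 Mb between bins and 0.965 Mb at most. Of these 102, 39 listed a gene (38.2%, 29.4 to 47.9). Both intervals include the autosomal share, and no test was made.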

How the results depend on the processing

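Of 62 values recomputed under 6 alternatives, 46 stayed within the 95% interval of the reported value and 16 moved outside it. With only cliques of 3 or more nodes, 210 remained, which was 7.15% of those considered, 11.9% had 5 or more nodes, the median span was 42.5 kb, 42.9% listed a gene, 7.56% of bins held a protein-coding gene start and 52.3% of promoters had a CpG ratio of 0.6 or more. No gene of the interferon list (0%) was left there. Fewer cliques enter there by construction. Counting a young bin within 5 kb or within 25 kb as shared left 858 and 599 cliques, or 15.8% and 11.0%. Their median distances to a young bin were 50.0 and 85.0 kb, and 100% of their gene names were listed by no young clique under each, since every exception had an adjacent young bin. Keeping pairs over 100 kb apart lowered the share at 15 kb spacing to 72.7%. By gene span in place of the gene column, 82.9% of cliques touched a gene and 53.8% of the genes had no young bin. Keeping the X chromosome moved none of the values recomputed. No paired analysis was possible because each age has 1 network without replicate columns, and for the same reason no replicate could be left out. The number of contacts behind each network is unknown, so the effect of depth on which cliques lack a young bin cannot be measured here.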

Other observations

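Gene families were read from the names after the values were seen, so their counts are descriptions. Of 6 collagen genes listed by the old cliques considered, 4 were in cliques without a young bin (66.7%, 30 to 90.3), beside 5.74% of all gene names. On the fixed list of extracellular matrix and fibrosis, 0 of 3 listed genes were. Col16a1, a fibril-associated collagen gene, was listed by 6 nodes on chromosome 4 from 130045001 to 130100000. Col7a1, encoding the anchoring fibril collagen, was listed by 3 nodes on chromosome 9 from 108950001 to 108985000. Col4a3 and Col4a4, basement membrane collagen genes that lie head to head, shared a pair on chromosome 1 from 82585001 to 82605000. The interval above treats these genes as independent although they share 1 clique. The nearest young bin was 100 kb from the Col16a1 clique, 10 kb from that of Col7a1 and 215 kb from the shared pair. The Col7a1 clique was enclosed in the span of another old clique of 11 nodes. All 3 listed Dpysl genes (Dpysl2, Dpysl3 and Dpysl5), which are known for axon guidance, were in pairs of this kind (100%, 43.9 to 100). On the fixed list of neuronal adhesion and synapse genes, 0 of 3 listed genes were in cliques without a young bin. Of 18 listed olfactory receptor genes, 6 were in such cliques (33.3%, 16.3 to 56.3). Zinc finger genes named Zfp were in them at 12 of 166 (7.23%, 4.18 to 12.2) and solute carriers at 7 of 160 (4.38%, 2.14 to 8.75). None of 38 cytochrome P450 genes was, which allows a share of up to 9.18%.

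The next 4 genes were also chosen after their values were seen, and no theme was counted over them. Of the fixed list of growth pathway receptors and ligands, 0 of 20 listed genes were in these cliques. Of 12 sinusoidal endothelium markers, 1 was listed by the old cliques considered, 0 by these cliques and 4 by young cliques. Vegfc, a lymphatic growth factor gene, was listed by 3 nodes on chromosome 8 from 54075001 to 54140000, 395 kb from a young bin and 2090 kb from another old one. Nos3, the endothelial nitric oxide synthase gene, was listed by a pair on chromosome 5 from 24365001 to 24385000, 15 kb from a young bin. Foxc2, a lymphatic and vascular transcription factor gene, was listed by a pair on chromosome 8 from 121115001 to 121215000, adjacent to a young bin. Bmp7, a bone morphogenetic protein gene, was listed by 3 nodes on chromosome 2 from 172915001 to 172940000, interleaved with a second such clique of 4 nodes. The clique that listed Bmp7 was 60 kb from a young bin and enclosed in the span of a young clique of 28 nodes.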
